A study of Mus musculus with 4 samples.

Results

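The immediate-early stress genes analysed here were 10 genes chosen by symbol, *Fos*, *Fosb*, *Jun*, *Junb*, *Jund*, *Egr1*, *Atf3*, *Ier2*, *Dusp1* and *Zfp36*, and each matched exactly 1 of the 32285 genes counted. They were measured by droplet scRNA-seq in 2 libraries of mouse testicular organoids (TOs) and 2 libraries of mouse testis. TOs are aggregates that were formed in microwells from dissociated testes of neonatal ICR mice, embedded in basement membrane extract, and then kept on transwells at the air-liquid interface in medium with serum replacement, antioxidants, FSH and testosterone. The series design and the study give 28 days for both TOs and testes, while the protocol in the labels names TOs of day 21. For TOs the study counts days of culture, which began from cells of neonatal mice, and for testes the 28 days are the animal's age. With 28 days of culture the TO cells were older from birth than the testes, and this difference in age cannot be told apart from culture. TOs and testes went through the same enzymes, collagenase I with DNase I and then trypsin with EDTA, both at body temperature. The labels name no treatment or genetic alteration of either group, and cells were not sorted. The study describes organoids of 2 independent batches and testes of 2 biological replicates, but the labels do not tie a library to a culture or an animal, so the p-values measure the spread between these libraries.

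Immediate-early genes are transcribed within minutes of a growth factor, cytokine, mechanical or stress signal, without new protein synthesis. Kinases of the MAPK cascades act on transcription factors already bound at their promoters, among them SRF at the CArG box and CREB or ATF proteins at the cAMP response element (CRE), and the mRNAs are short-lived. *Fos*, *Fosb*, *Jun*, *Junb* and *Jund* encode subunits of the AP-1 transcription factor, *Egr1* a zinc finger transcription factor, *Atf3* a stress-induced bZIP factor and *Ier2* a short-lived nuclear protein. *Dusp1* encodes a phosphatase that switches MAPKs off, and *Zfp36* (tristetraprolin) a protein that sends AU-rich mRNAs to decay. Enzymatic dissociation of a tissue at body temperature can itself induce them, and its part in the levels given here was not tested.

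The promoters are shown because the 10 genes are commonly read as 1 response, and elements of this kind are how such genes are known to be induced. Upstream sequence was held for 8 of the 10 genes in the RefSeq table used here (build GRCm38.p6). That of *Jund* was left out because its RefSeq start lies 1210 bases upstream of its only transcript start in the gene models, and for the other 7 a transcript start lies within 30 bases of the RefSeq start. The 250 bases before the RefSeq start were searched on both strands for the CArG box, a run of A or T between CC and GG, and for the CRE, TGACGTCA. The TATA box, TATAAA, was searched on the gene's strand. Only exact matches within these 250 bases were sought, so elements further upstream or with a changed base were not looked for. A CArG box was found in 1.47% of 32851 promoters of this length, a CRE in 1.55% and a TATA box in 7.59%. Of the 7 promoters, that of *Zfp36* held a CArG box at bases -58 to -49, that of *Dusp1* a CRE at -143 to -136 and that of *Fos* a TATA box at -33 to -28. The shorter CRE half-site, TGACG, which every CRE also contains, was in 17.8% of all promoters and in 5 of the 7, those of *Fos*, *Fosb*, *Junb*, *Atf3* and *Dusp1*. In the sequences below, given 5′ to 3′ on the gene's strand, capitals mark the CArG box, CRE or TATA box, and *Jun* is shown as a promoter in which none of the 3 was found.
Fos, chr12:85473640-85473889, plus strand: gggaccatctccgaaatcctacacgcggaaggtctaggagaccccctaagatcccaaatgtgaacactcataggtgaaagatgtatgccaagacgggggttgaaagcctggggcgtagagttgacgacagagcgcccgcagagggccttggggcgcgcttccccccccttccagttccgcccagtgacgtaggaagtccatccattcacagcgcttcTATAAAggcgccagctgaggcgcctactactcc
Zfp36, chr7:28379229-28379478, minus strand: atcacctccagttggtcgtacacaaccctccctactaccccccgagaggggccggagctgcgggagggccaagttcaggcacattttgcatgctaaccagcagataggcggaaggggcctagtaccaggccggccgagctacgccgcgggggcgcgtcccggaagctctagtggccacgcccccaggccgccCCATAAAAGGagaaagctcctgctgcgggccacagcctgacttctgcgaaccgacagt
Dusp1, chr17:26508473-26508722, minus strand: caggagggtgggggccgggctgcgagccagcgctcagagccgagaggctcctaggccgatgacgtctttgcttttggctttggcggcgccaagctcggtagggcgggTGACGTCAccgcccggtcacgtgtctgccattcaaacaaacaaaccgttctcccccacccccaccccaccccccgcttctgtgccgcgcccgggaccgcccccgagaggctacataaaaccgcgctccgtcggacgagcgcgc
Jun, chr4:95052223-95052472, minus strand: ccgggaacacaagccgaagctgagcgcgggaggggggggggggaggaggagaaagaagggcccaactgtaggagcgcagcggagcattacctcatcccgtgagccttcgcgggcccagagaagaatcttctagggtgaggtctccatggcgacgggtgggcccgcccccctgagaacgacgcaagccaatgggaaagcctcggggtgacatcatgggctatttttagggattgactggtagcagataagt

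By their gene models in GRCm38, *Fos* lies at chr12:85473890-85477273 on the plus strand, *Fosb* at chr7:19302696-19310051 and *Zfp36* at chr7:28376784-28380253, both on the minus strand, and *Jun* at chr4:95049034-95052222 on the minus strand. *Junb* (chr8:84974484-84978718, minus), *Jund* (chr8:70698949-70700616, plus) and *Ier2* (chr8:84661331-84662852, minus) share chromosome 8. *Atf3* lies at chr1:191170296-191218039 and *Dusp1* at chr17:26505590-26562128, both on the minus strand. The *Dusp1* model overlaps 2 other genes on its own strand, so its reads may be split with theirs. On the opposite strand, *Junos*, *Prdx2*, *Gm11175*, *Gm24748* and *Gm44710* overlap *Jun*, *Junb*, *Jund*, *Atf3* and *Zfp36* in that order, and *Gm8225* and *Ergic1* overlap *Dusp1*. How the counting treated strand is not given in the sources used here.

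The 4 libraries held 74988295 to 119966959 UMIs in 11826 to 14643 barcodes, and 8713 to 9866 cells per library were kept. The median depth of kept cells was 5482 and 7548 UMIs in TOs and 2549.5 and 3267 in testes, and the median mitochondrial share was 3.37% and 3.38% against 1.18% and 0.832%. Libraries shared 30 to 55 barcodes in pairs, at most 0.440% of the smaller one. Cells were grouped by marker genes without using the 10 genes, and the levels below are CPM, the UMIs of a gene scaled to 1000000 UMIs, in the summed cells of a type. Testes were mostly germ cells, with spermatids making up 55.4% and 67.9% of kept cells against 0.490% and 0.448% in TOs. Over all kept cells the 10 genes together reached 6703 and 4528 CPM in TOs and 732 and 613 CPM in testes, and since fewer cells of a type and less RNA per cell cannot be told apart in such a total, every comparison was made within a cell type. In the 5 somatic types compared, testis cells held 1304 to 3503 CPM of the spermatid marker list and TO cells 1.57 to 6.62 CPM, and the part of this RNA from other cells in the comparisons was not tested.

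The 10 genes summed to higher levels in every somatic type than in every germ cell type of the same library. In the stromal cells, the *Dcn* and *Pdgfra* positive interstitial cells, the 10 genes summed to 14612 and 7427 CPM in TO replicates 1 and 2 and to 4336 and 3332 CPM in testis replicates 1 and 2. Myoid and smooth muscle cells followed with 11479.5 and 5977 CPM against 3619 and 2365 CPM. Macrophages reached 5823 and 3149 CPM against 3097 and 1868 CPM. Each of these types was higher in both TO libraries than in both testis libraries, though in macrophages the lower TO library lay just above the higher testis library. Leydig cells, the steroid-producing cells, had 3722 and 2341 CPM against 1732 and 1116 CPM. Sertoli cells, the nurse cells of the tubules, had 3096 and 2847 CPM against 836 and 667 CPM. Leydig and Sertoli cells did not differ beyond their spread in TOs, whereas in both testis libraries Sertoli cells were the lowest of the somatic types. In spermatogonia the sum was 876 and 695 CPM against 475 and 501 CPM, of which *Jund* gave 551 and 499 CPM against 378 and 413 CPM. TO myoid cells held 4180 and 5866 CPM of the stromal marker list and testis myoid cells 1774 and 1665 CPM, and the part of this in the myoid values was not tested.

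The spread between libraries of 1 group was itself large. TO replicate 1 exceeded TO replicate 2 for 10 of 10 genes in stromal, myoid, macrophage and Leydig cells, with a median ratio of 2.12 in stromal, 2.05 in myoid, 2.13 in macrophage and 1.82 in Leydig cells. In Sertoli cells it did so for only 6 of 10 genes, with a median ratio of 1.07. Testis replicate 1 exceeded testis replicate 2 for 8 to 10 of the 10 genes in these 5 types, with median ratios from 1.71 in macrophages to 2.51 in Leydig cells. The TO to testis ratio of group means had a median over the 10 genes of 3.58 in stromal, 3.48 in myoid, 2.07 in macrophage, 2.21 in Leydig and 3.56 in Sertoli cells. The ratio between groups was thus close to that between the TO libraries in macrophages and above it in Sertoli cells. With 2 libraries against 2, the exact permutation test of a single value cannot go below a two-sided p of 0.33, so calls rest on the edgeR fit across all genes.

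**Figure D1:**
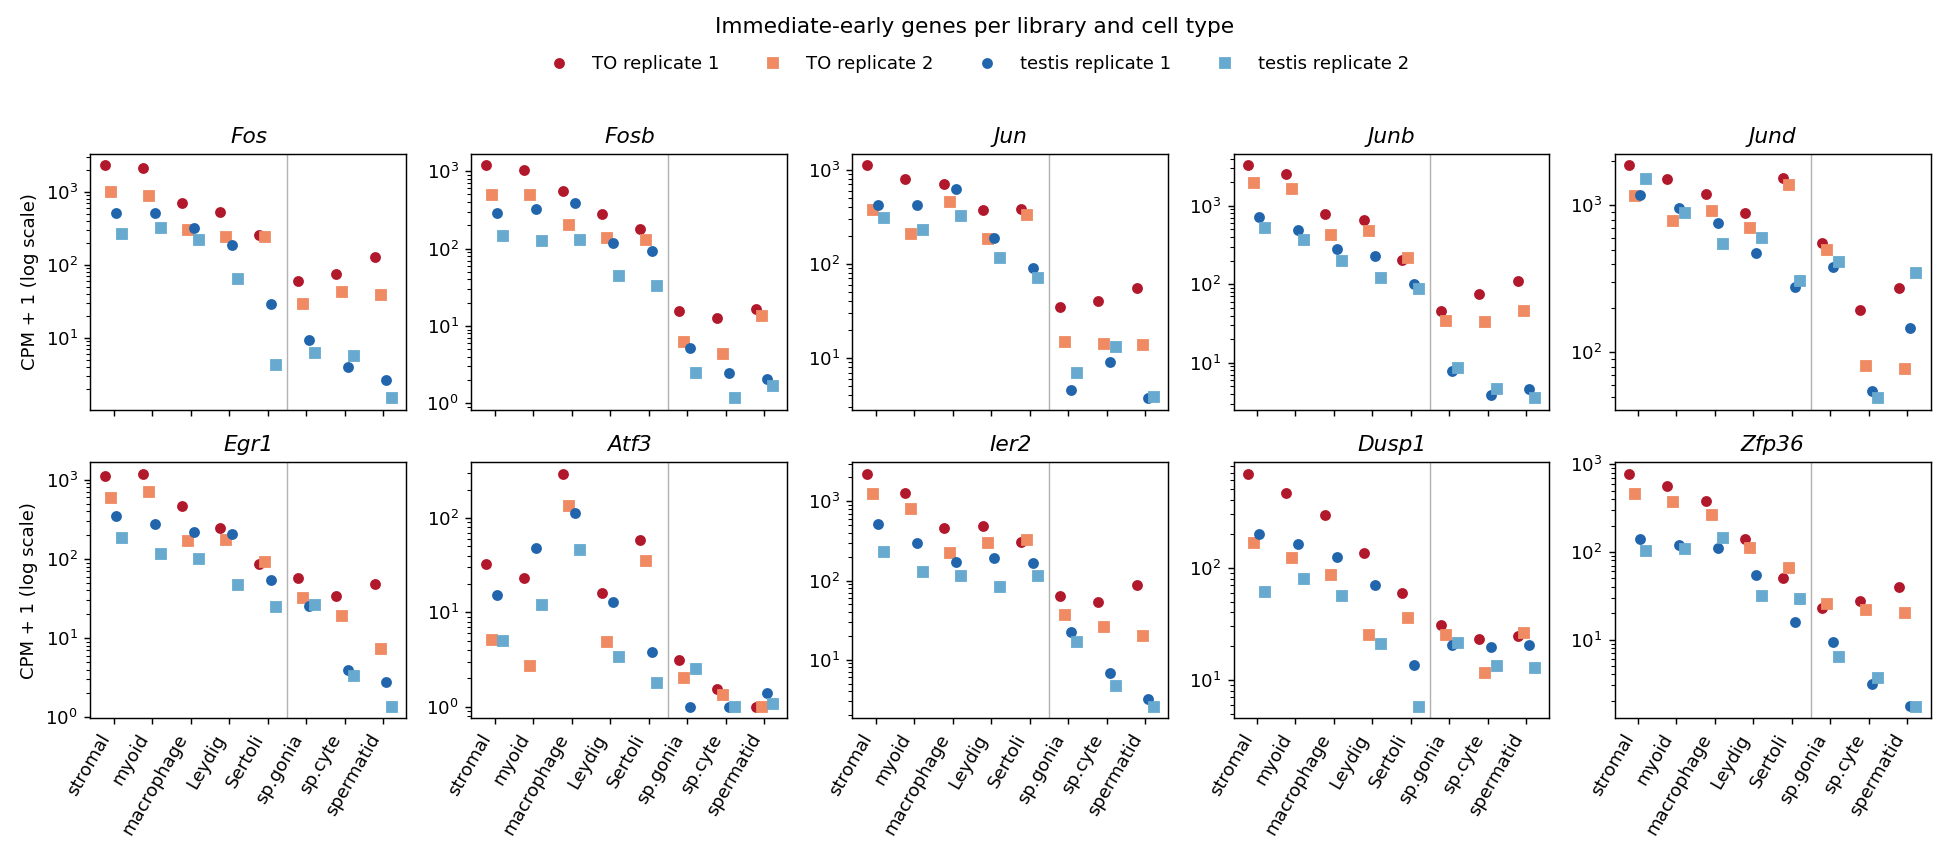
Level of each of the 10 genes (CPM + 1, log scale) in 5 somatic and 3 germ cell types (sp.gonia, spermatogonia; sp.cyte, spermatocytes), with 1 point per library. The TO libraries (reds) lie above the testis libraries (blues) for all 10 genes in Sertoli cells, for 6 in stromal, myoid and Leydig cells and for 5 in macrophages. *Jun* and *Dusp1* overlap in every somatic type shown but Sertoli cells, and *Jund* and *Atf3* overlap in stromal and myoid cells. *Atf3* is highest in macrophages.

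**Figure D2:**
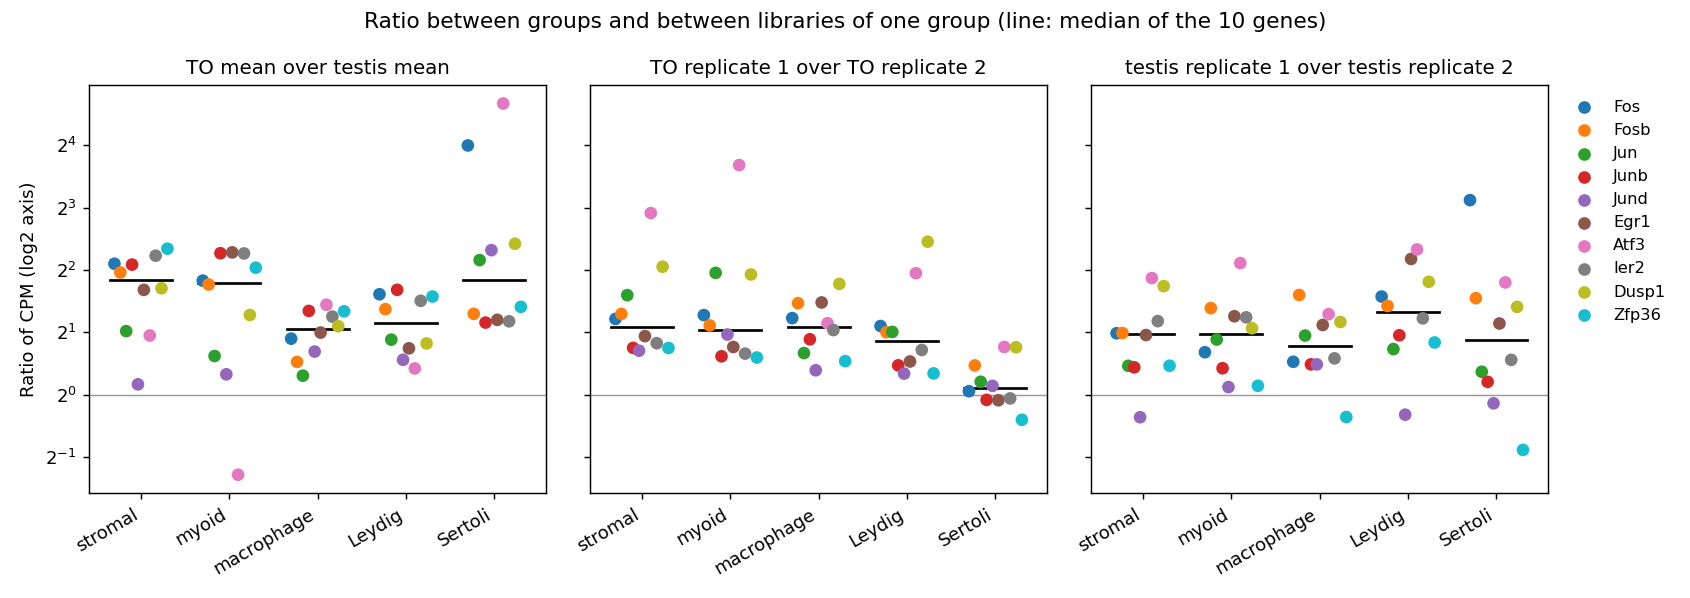
Ratio of CPM (log2 axis) for each of the 10 genes in 5 somatic types, between group means (left), between the TO libraries (middle) and between the testis libraries (right), with the median as a line. The medians for Sertoli cells are 3.56 between groups and 1.07 between TO libraries, and those for macrophages are 2.07 and 2.13.

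A gene was called when the edgeR quasi-likelihood adjusted p was below 0.01 and the absolute log2 fold change above 1. In Sertoli cells, 8 of the 10 genes were called higher in TOs, against 8.90% of all genes tested in that type, and *Fosb* and *Egr1* were not called. TO Sertoli cells held 159 and 110 CPM of the stromal marker list against 23.0 and 10.4 CPM in testis Sertoli cells, and 173 and 72.7 CPM of the Leydig marker list against 40.4 and 35.1 CPM, and their part in the Sertoli calls was not tested. A rule that leaves out genes with at least 5 times the CPM in other cells removed *Junb*, *Zfp36* and *Egr1* from the test in Sertoli cells, and the other 6 called genes were called under it. In myoid and smooth muscle cells 4 were called higher (*Junb*, *Egr1*, *Ier2* and *Zfp36*), against 4.46% of all genes. In stromal cells 3 were called higher (*Junb*, *Ier2* and *Zfp36*), against 2.35%, and in macrophages 2 (*Junb* and *Zfp36*), against 3.32%. In Leydig cells none of 10 was called by edgeR, against 2.16% of all genes. There 5 had an unadjusted p below 0.05, beside 2044 genes higher and 3542 lower of the 15493 tested. DESeq2 called 3 higher, beside 632 genes higher and 2327 lower of 24588. In these fits no gene of the 10 was called lower in any of the 8 types compared. The count of genes higher in both TO libraries than in both testis libraries was 10 of 10 in Sertoli cells (32.4% of all genes with enough UMIs), 6 of 10 in Leydig (33.8%), myoid (36%) and stromal cells (31.2%), and 5 of 10 in macrophages (21.9%).

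The calls depended on single libraries outside Sertoli cells. Over all genes tested in stromal, myoid and macrophage cells, higher calls also rose without TO replicate 2 and fell without testis replicate 2. Whether the immediate-early genes, whose calls are counted next, moved beyond this general change was not tested. Without TO replicate 2, the calls rose to 9 in stromal, 8 in myoid and 8 in macrophage cells, while without testis replicate 2 they fell to 0, 1 and 0. Without testis replicate 1 they were 1, 4 and 0 in the same order. Without TO replicate 1, 4 genes were called in stromal cells and 1 in macrophages, and 6 in myoid cells, of which *Atf3* was called lower. In Leydig cells 1 gene was called without TO replicate 2 and 2 without testis replicate 1. In Sertoli cells 8 or 9 genes were called whichever library was left out, and of the 8 called with all libraries *Zfp36* alone was lost, without testis replicate 1.

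**Figure D3:**
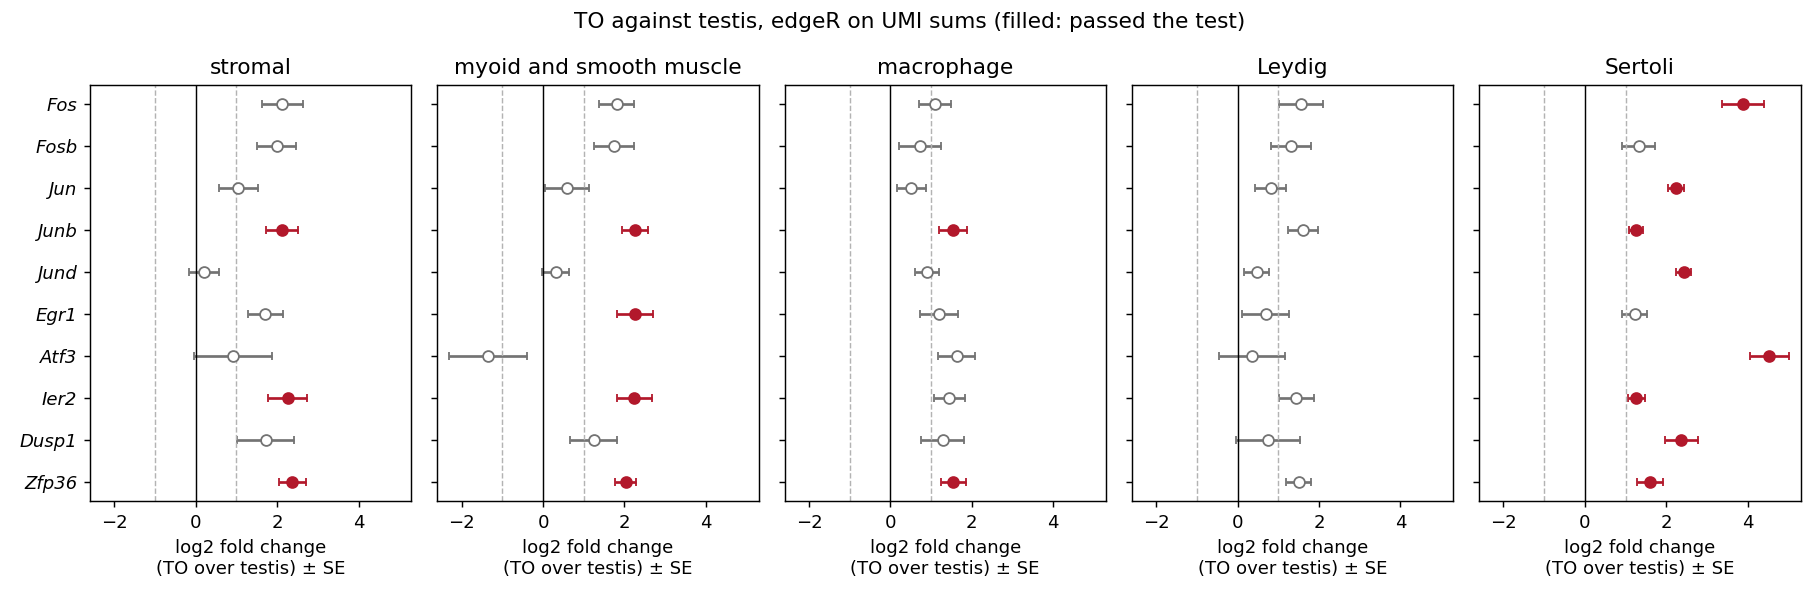
Log2 fold change of each gene, TO over testis, with its standard error, from edgeR fits of the UMI sums in 5 somatic types (2 TO and 2 testis libraries), where filled points passed the test and dashed lines mark a log2 fold change of 1 either way. *Junb* and *Zfp36* passed in 4 of the 5 types, and 8 genes passed in Sertoli cells.

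*Fos* encodes the inducible partner that binds Jun proteins to form AP-1. In Sertoli cells it was measured at 252 and 243 CPM in TOs and at 27.7 and 3.19 CPM in testes, the latter from 70 and 4 UMIs. The groups did not overlap, and the log2 fold change was 3.88 ± 0.52 (SE; adjusted p = 0.000827, edgeR). In stromal cells *Fos* stood at 2317 and 998 CPM against 513 and 259.6 CPM, and in myoid cells at 2111 and 872 CPM against 517 and 323 CPM. Here too both TO libraries were above both testis libraries, yet with log2 fold changes of 2.13 ± 0.50 (edgeR adjusted p = 0.0136) and 1.81 ± 0.43 (edgeR adjusted p = 0.0107) neither passed. In macrophages the values were 695 and 297 CPM against 314 and 218 CPM, and the groups overlapped. Leydig cells had 520.4 and 243 CPM against 187 and 62.9 CPM (log2 fold change 1.55 ± 0.54, edgeR adjusted p = 0.0822). Of the somatic types compared, stromal and myoid cells came first in *Fos* level and did not differ beyond their spread in either group, macrophages and Leydig cells followed, and Sertoli cells came last, with TO Sertoli cells close to the lower TO Leydig library. *Fosb*, the close relative of *Fos*, was at 1190.2 and 485 CPM in TO stromal cells against 286 and 144 CPM in testis stromal cells (log2 fold change 1.98 ± 0.49, edgeR adjusted p = 0.0168). In macrophages it was at 550.2 and 199 CPM against 392 and 129 CPM, where the groups overlapped, and in Sertoli cells at 178 and 129 CPM against 93.2 and 31.9 CPM (1.32 ± 0.40, edgeR adjusted p = 0.028). *Fosb* was called in none of the 8 types.

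*Junb*, an AP-1 subunit that follows the same signals as *Fos*, was called higher in 6 of the 8 types. Stromal cells held 3288 and 1956 CPM in TOs and 710.3 and 525 CPM in testes, with a log2 fold change of 2.12 ± 0.40 (edgeR adjusted p = 0.00466). Myoid cells held 2518 and 1645 CPM against 494 and 369 CPM (2.26 ± 0.32, edgeR adjusted p = 0.000713). In both types all TO libraries were above all testis libraries. Macrophages had 785 and 425 CPM against 278 and 199 CPM (log2 fold change 1.55 ± 0.35, edgeR adjusted p = 0.00543), and Sertoli cells 200.1 and 212 CPM against 99.1 and 86.1 CPM (1.25 ± 0.17, edgeR adjusted p = 0.000849). In Leydig cells *Junb* stood at 652 and 471 CPM against 231 and 119 CPM and did not pass (1.61 ± 0.37, edgeR adjusted p = 0.0172), though the groups did not overlap.

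*Jun*, the subunit best known as the target of JNK kinases, and *Jund*, the subunit that many cells express without a stimulus, rose in Sertoli cells. *Jun* was at 384 and 333 CPM in TO Sertoli cells and at 90.4 and 70.1 CPM in testis Sertoli cells, a log2 fold change of 2.25 ± 0.19 (edgeR adjusted p = 0.000106). *Jund* was at 1525 and 1385 CPM against 277 and 306 CPM, a log2 fold change of 2.43 ± 0.18 (edgeR adjusted p = 5.33e-05). Both differences were larger than the spread between libraries. In stromal cells, by contrast, *Jund* was at 1876 and 1152 CPM in TOs and 1182 and 1521 CPM in testes, so the groups overlapped, and its log2 fold change was 0.20 ± 0.36. Myoid cells showed the same overlap for *Jund*, with 1523 and 781 CPM against 958 and 881 CPM. *Jun* overlapped between groups in stromal, myoid, macrophage and Leydig cells, and in myoid cells it ranged from 795 CPM in TO replicate 1 to 205 CPM in TO replicate 2.

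Both *Egr1* and *Ier2* were called higher in TO myoid cells. *Egr1* was at 1185 and 698 CPM in TO myoid cells and 273 and 114 CPM in testis myoid cells (log2 fold change 2.26 ± 0.44, edgeR adjusted p = 0.00375). *Ier2* was at 1257 and 797 CPM against 300.1 and 127 CPM (2.24 ± 0.43, edgeR adjusted p = 0.00337). In stromal cells *Ier2* was at 2215 and 1251 CPM against 513 and 226 CPM and passed the test (2.26 ± 0.48, edgeR adjusted p = 0.00852), whereas *Egr1*, at 1119 and 584 CPM against 350.4 and 181 CPM, did not (1.71 ± 0.43, edgeR adjusted p = 0.0181). The groups did not overlap for either gene in stromal or myoid cells. In Sertoli cells both were low, *Egr1* at 85.2 and 90.8 CPM against 52.7 and 23.9 CPM and *Ier2* at 307 and 320.5 CPM against 165 and 112 CPM, and *Ier2* was called (1.27 ± 0.22, edgeR adjusted p = 0.00249).

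Among the types compared, *Atf3* was highest in macrophages in every library, at 292 and 132 CPM in TOs and 111 and 45.3 CPM in testes. *Jun* was also highest there in TO replicate 2 and both testis replicates, and *Fosb* in testis replicate 1. For *Atf3* in macrophages the TO libraries lay above the testis libraries without passing the test (log2 fold change 1.63 ± 0.45, edgeR adjusted p = 0.0181). In Sertoli cells it was at 57.4 and 33.8 CPM against 2.77 and 0.797 CPM, the latter from 7 and 1 UMIs, a log2 fold change of 4.54 ± 0.48 (edgeR adjusted p = 0.000284). This was the largest log2 fold change of the 10 genes over the 5 somatic types. In myoid cells the order of the libraries was mixed, with 22.0 and 1.71 CPM in TOs and 47.0 and 10.9 CPM in testes, and the log2 fold change was -1.36 ± 0.97 (edgeR adjusted p = 0.296). The TO libraries differed by a ratio of 12.9 there and of 7.54 in stromal cells, the widest among the 10 genes in both types.

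Of the genes of feedback, *Zfp36* was called higher in the same 6 types as *Junb*. Stromal cells held 775 and 462 CPM in TOs and 141 and 103 CPM in testes (log2 fold change 2.38 ± 0.34, edgeR adjusted p = 0.00115), and myoid cells 561 and 371 CPM against 119 and 108 CPM (2.03 ± 0.26, edgeR adjusted p = 0.00043). Macrophages had 378 and 261 CPM against 111 and 142 CPM (1.54 ± 0.31, edgeR adjusted p = 0.00234), so that all TO libraries were above all testis libraries in these types. Under the alternative settings it passed in 16 of 17 in stromal cells, in 16 of 16 that could be run in myoid cells and in 14 of 17 in macrophages. Of the 8 types, *Dusp1* was called in Sertoli cells alone, at 58.8 and 34.7 CPM against 12.7 and 4.78 CPM (2.37 ± 0.41, edgeR adjusted p = 0.00254). In both testis libraries *Dusp1* was lower in Sertoli cells than in any other type, spermatogonia (19.4 and 20.2 CPM) and the other germ cells included. In stromal cells it was at 685 CPM in TO replicate 1 but at 165 CPM in TO replicate 2, within the testis values of 200.5 and 60 CPM, and it overlapped between groups in myoid, macrophage and Leydig cells as well.

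Whether the change in Sertoli cells differed from that in the other somatic types was tested in 1 edgeR fit over the sums of 5 types, with a term for each library. *Fos* changed more in Sertoli cells than in each of the other 4 types, with differences of -2.28 ± 0.49 for stromal (edgeR adjusted p = 0.00338), -2.76 ± 0.49 for myoid, -3.09 ± 0.50 for macrophage and -2.66 ± 0.49 for Leydig cells on the log2 scale. *Jund* did so as well, with differences from -1.46 ± 0.29 in macrophages (edgeR adjusted p = 0.00301) to -2.47 ± 0.29 in myoid cells (edgeR adjusted p = 1.22e-05). *Jun* passed against stromal, myoid and Leydig cells, *Atf3* against myoid and Leydig cells and *Dusp1* against Leydig cells. The number of the 10 genes that passed was 5 against Leydig (beside 6.51% of all genes), 2 against macrophage (2.69%), 4 against myoid (9.95%) and 3 against stromal cells (7.41%). The shares over all genes count a higher log2 fold change in Sertoli cells. They thus include genes that fell in the other type or fell less in Sertoli cells. For *Fosb*, *Junb*, *Egr1*, *Ier2* and *Zfp36* no difference passed, and for *Junb* against stromal cells it was 0.60 ± 0.28, toward the stromal side. With 1 library left out, the count against Leydig cells was 5 without TO replicate 1, 3 without TO replicate 2 and 2 without either testis replicate. Against macrophages it was 6 without TO replicate 1, 3 without TO replicate 2, 1 without testis replicate 1 and 0 without testis replicate 2. Against myoid cells it was 5, 4, 2 and 2 in the same order, and against stromal cells 4, 2, 2 and 1. Sertoli cells had a mitochondrial share of 6.0% and 7.20% in TOs and 7.93% and 7.50% in testes, and had 10019 and 11340 UMIs per cell against 6226 and 4055.

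The levels were also read within clusters of a type. Sertoli cells fell into clusters with distinct leading genes, and in the main cluster (led by *Qpct*, *Cldn11* and *Shbg*) *Jund* was at 1553 and 1383 CPM in TOs and 292 and 329 CPM in testes. In a second cluster, led by *Tsx* and *Rhox5*, *Jund* was at 1619 and 1521 CPM against 178 and 209 CPM. *Fos* in that cluster was at 131 and 48.3 CPM in TOs below the main cluster in both, and on 1 and 0 UMIs in testes, too few to compare. Another cluster, led by *Erbb4* and *Fshr*, held 151 and 29 TO cells but 21 and 8 testis cells, too few to compare. *Jund* was higher in both TO libraries than in both testis libraries within each of the first 2 clusters. Leydig cells of TOs were spread over more clusters than those of testes, which mostly held 1 cluster led by *Cyp17a1*. Within that cluster the 10 genes summed to 3182 and 2014 CPM in TOs and 1776 and 1119 CPM in testes, and a cluster of TO cells led by *Ces1d* and *Gsta3* reached 6146 and 3664 CPM. TO cells of a cluster led by *Eya1* and *Ccdc3* had 4299 and 2908 CPM. A cluster led by *Sult1e1*, of 50 cells in each TO library and none in testes, had 2218 and 761 CPM. Its lower value lay below both testis values of the *Cyp17a1* cluster. Myoid cells held a contractile cluster (led by *Cnn1*, *Myh11* and *Acta2*) and a smaller cluster led by *Rgs5* and *Higd1b*, which made up 211 of 695 and 142 of 434 myoid cells in testes but 59 of 2464 and 73 of 1738 in TOs. In the contractile cluster the 10 genes summed to 11635 and 6116 CPM in TOs and 3213 and 2033 CPM in testes. The sums in the *Rgs5* cluster were 7817 and 3702 CPM against 4544 and 3094 CPM, and the groups overlapped. What part the cluster shares had in the myoid comparison was not tested. *Atf3* in testes was at 121 and 24.0 CPM in the *Rgs5* cluster and 14.6 and 4.94 CPM in the contractile cluster, where TO cells had 21.5 and 1.54 CPM.

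To see whether the transcripts were shared over cells, each cell was thinned to 1500 UMIs and the share of cells with UMIs of at least 5 of the 10 genes was taken. Of TO stromal cells, 88.8% and 62.2% reached this number, against 32.1% and 15% of testis stromal cells. In myoid cells the shares were 78.6% and 50.2% against 30.1% and 11.5%. Both TO libraries were above both testis libraries in these types, and the differences of means were 51.9 and 43.6 percentage points (exact permutation p = 0.33 for each, the smallest possible). Leydig cells had 31.1% and 13.9% against 9.57% and 2.34%, and Sertoli cells 11.4% and 9.09% against 0.225% and 0.478%. In macrophages the share was 56.3% and 19.7% against 24.0% and 8.16%, and the groups overlapped. In spermatocytes, given beside them as a germ cell type, it was 1.04% and 0 in TOs and 0 in testes. There 0 of 329 cells in TO replicate 2 allows up to 0.912% and 0 of 1155 cells in testis replicate 2 up to 0.260%, at median depths of 8232 and 3494 UMIs. The part of RNA from other cells in these shares was not tested. Without thinning, the Sertoli share was 71.2% and 60.3% against 19.6% and 11%. In TO stromal cells the 10% of cells with most of them held 19.1% and 22.3% of the UMIs of these genes, against 34.9% and 33.6% in testis stromal cells, and the share of cells with none was 0.651% and 2.85% against 16.8% and 14.8%.

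At the same thinned depth, *Fos* UMIs were found in 88.3% and 67.6% of TO stromal cells and in 38.1% and 21.8% of testis stromal cells, beside 9.0% and 3.95% of TO spermatocytes and 0.477% and 0.433% of testis spermatocytes. *Jund* was found in 81.3% and 80.6% of TO Sertoli cells and 28.1% and 34.4% of testis Sertoli cells. Its shares in spermatocytes were 26.3% and 10.6% in TOs and 11% and 7.53% in testes. *Fos* in Sertoli cells was found in 25.5% and 21.8% of TO cells and in 3.37% and 0 of testis cells, where 0 of 209 cells allows up to 1.44% at 1500 UMIs per cell. At full depth, where more UMIs per cell are read, these *Fos* shares were 61.5% and 50.0% against 11% and 1.91%.

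**Figure D4:**
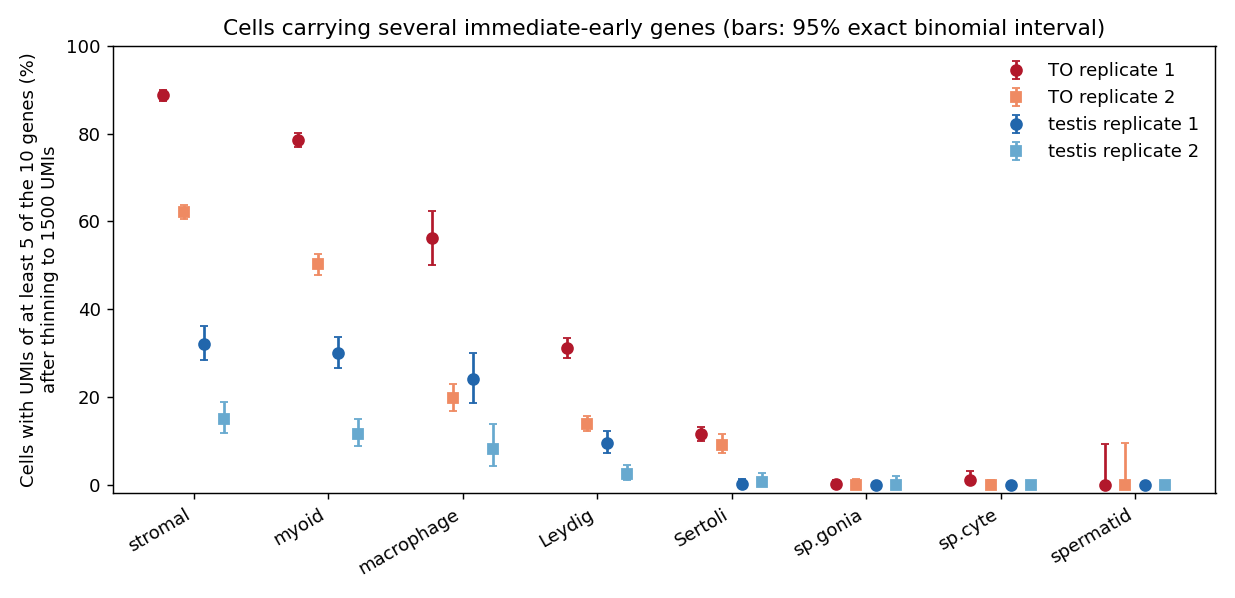
Share of cells with UMIs of at least 5 of the 10 genes after thinning each cell to 1500 UMIs, by cell type and library, with 95% exact binomial intervals that cover counting error only. The share falls from stromal (88.8% in TO replicate 1) to Sertoli cells (11.4%) and is near 0 in germ cells of all libraries.

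In germ cells the levels were low and *Jund* was the exception. Testis spermatogonia held *Jund* at 378 and 413 CPM and TO spermatogonia at 551 and 499 CPM (log2 fold change 0.35 ± 0.19, edgeR adjusted p = 0.26). Testis spermatids held it at 146 and 347 CPM and spermatocytes at 53.3 and 48.0 CPM, so in testes *Jund* was lower in spermatocytes than in the cells before and after them. In TO spermatogonia 5 of the 9 genes tested were called higher (*Fos*, *Jun*, *Junb*, *Ier2* and *Zfp36*), against 0.857% of all genes, and in TO spermatocytes 5 of 9 (*Fos*, *Junb*, *Egr1*, *Ier2* and *Zfp36*), against 16.4%. With a library left out the counts ran from 3 without TO replicate 1 to 5 in spermatogonia and from 3 without TO replicate 1 to 8 without TO replicate 2 in spermatocytes. *Fos*, for example, was at 58.5 and 27.7 CPM in TO spermatogonia and 8.39 and 5.25 CPM in testis spermatogonia. That was 5.12% and 4.43% of the level in somatic cells of the same TO library, and the matching shares in TO spermatogonia were 3.68% and 1.42% for the stromal gene *Dcn* and 8.18% and 3.85% for *Vim*. In testis spermatogonia they were 3.00% and 3.09% for *Fos*, 1.45% and 0.249% for *Dcn* and 0.964% and 1.30% for *Vim*, the *Fos* shares in testes being the highest of the 3. Transcripts of somatic cells were found in these germ cells of both groups, and their part in the germ cell calls was not tested. The rule that leaves out genes of other cells removed all of the called genes from the test in both types. In spermatids, 48 and 39 cells in TOs, none of 9 genes tested was called by edgeR (0% of all genes higher, 0% lower). Of the 9, 7 had an unadjusted p below 0.05, beside 1387 genes higher and 2430 lower of the 16585 tested. DESeq2 called 4 higher, beside 313 genes higher and 594 lower of 27231. The TO cells of this type held 793 and 1543 CPM of the spermatid marker list against 10122 and 45353 CPM in testes.

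Levels in endothelial cells are given for testes only. The TO cells that fell into that cluster had *Pecam1* at 2.43 CPM and 0 and *Flt1* at 0 in both libraries, against 307 and 269.8 CPM of *Pecam1* in testes, so no comparison was made. In testis endothelial cells the 10 genes summed to 4395 and 4274 CPM. *Dusp1* (267 and 219.5 CPM), *Fos*, *Ier2* and *Zfp36* were each higher there than in any other type of both testis libraries.

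Other genes of the same response were counted from lists of early response, upstream and heat shock genes. Of 7 other AP-1 and bZIP genes tested in Sertoli cells, 5 were higher in TOs (*Fosl2*, *Maff*, *Atf4*, *Cebpb* and *Cebpd*) and none was lower, where 20% of all genes were lower. Of 26 other early feedback and growth regulators tested there, 16 were higher, and of 14 other early transcription factors 4 (*Klf2*, *Klf6*, *Myc* and *Nfil3*), beside 8.90% of all genes. Of 9 early secreted, matrix and cytoskeletal genes, 3 were higher (*Ccn1*, *Ccn2* and *Rhob*) and 1 (*Arc*) lower. The median log2 fold change of these 4 lists in Sertoli cells was 2.09, 1.46, 1.14 and 0.61 in the order given, beside 0.02 over all genes. *Myc* had 13.1 and 15.7 CPM in TO Sertoli cells and no UMI in testis Sertoli cells, at least 18.1-fold higher with 3 UMIs over the group taken as the floor, and *Socs3*, a cytokine feedback inhibitor, was at least 11.1-fold higher on the same basis. *Ccn1*, a secreted matrix protein, was at 95.1 and 103 CPM in TOs and 1.59 CPM in each testis library (log2 fold change 6.05 ± 0.29, edgeR adjusted p = 1.48e-05).

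In myoid cells 8 of 16 other early transcription factors and 5 of 8 other AP-1 and bZIP genes were higher in TOs, beside 4.46% of all genes, and in stromal cells 7 of 16 and 3 of 9, beside 2.35%. Of the 26 feedback and growth regulators 5 were higher in myoid, 2 in stromal and 1 (*Nfkbia*) in Leydig cells, where 2.16% of all genes were higher, and 4 of 22 in macrophages, where 3.32% were. Of the early secreted, matrix and cytoskeletal genes 3 of 11 were higher (*Ptgs2*, *Thbs1* and *Errfi1*) and 2 lower (*Ccn2* and *Hbegf*) in myoid cells, and 1 of 10 was higher (*Errfi1*) and 1 lower (*Arc*) in stromal cells. In Leydig cells 2 of 8 were higher (*Ccn1* and *Rhob*) and 1 lower (*Arc*), and in macrophages 1 of 6 was higher (*Errfi1*) and 1 lower (*Arc*). The orphan receptor genes *Nr4a2* and *Nr4a3* and the zinc finger gene *Egr2* led in stromal cells, *Egr2* at 94.5 and 25.7 CPM in TOs against 5.77 and 0.789 CPM in testes (4.16 ± 0.85, edgeR adjusted p = 0.00691) and *Nr4a3* at 86.9 and 15.1 CPM against 1.44 CPM and 0. In myoid cells *Egr2* was at 36 and 17.5 CPM against 2.14 and 0.680 CPM (4.14 ± 0.62, edgeR adjusted p = 0.000919), and *Ptgs2* and *Batf3* had no UMI in testes, which makes them at least 10.6-fold and 9.21-fold higher. In macrophages 5 of 13 other early transcription factors were higher (*Egr2*, *Egr3*, *Id1*, *Id2* and *Id3*), with *Id2* at 367 and 265 CPM against 37.4 and 21.0 CPM. In Leydig cells 3 of 15 were higher, with *Myc* at 69.4 and 74.7 CPM against 7.28 and 6.14 CPM (3.35 ± 0.26, edgeR adjusted p = 0.000413). Not all early genes moved this way, since *Arc*, a cytoskeletal early gene of neurons, was called lower in TO Sertoli, Leydig, macrophage and stromal cells (edgeR adjusted p from 0.000191 to 0.00873), where the lower calls made up 20%, 12.2%, 16.3% and 17.8% of all genes, and in spermatogonia and spermatocytes. *Hbegf*, a growth factor gene, was lower in myoid cells, at 4.04 and 1.54 CPM against 25.1 and 16.3 CPM, where 20.1% of all genes were lower.

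Of 14 or 15 upstream genes of the SRF and MAPK pathways tested, edgeR called none in Sertoli, Leydig, myoid or stromal cells and 1 (*Mrtfa*) higher in macrophages. At an unadjusted p below 0.05 there were 7, 3, 4 and 2 in the first 4 types. Over all genes 3684 were higher and 4278 lower at this threshold of 14345 in Sertoli cells, and 2044 and 3542 of 15493 in Leydig cells. The numbers were 3013 and 4517 of 15653 in myoid cells and 2179 and 4224 of 15456 in stromal cells. In spermatogonia, where 12.1% of all genes were lower, edgeR called none of 14 and none had an unadjusted p below 0.05, and in spermatocytes, where 16.4% of all genes were higher and 29.4% lower, 7 of 15 were higher and 1 (*Srf*) lower. Of the 7 heat shock genes that dissociation can induce, some rose and others fell. *Hspa1b* was higher in TO Sertoli, Leydig, myoid and stromal cells and *Hspa1a* in Sertoli and stromal cells, whereas, of the somatic types, the cochaperone gene *Dnajb1* was lower in Sertoli, macrophage and myoid cells and *Hsp90aa1* in macrophages and myoid cells. *Dnajb1* was at 20.7 and 20.8 CPM in TO Sertoli cells against 128 and 106 CPM in testis Sertoli cells, a log2 fold change of -2.40 ± 0.18 (edgeR adjusted p = 6e-05).

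Across the 36 sums of 9 types and 4 libraries, *Zfp36* and *Junb* were most like *Fos* among the 10 genes (Pearson r of log2(CPM + 1) 0.96 for both), and *Jund* and *Atf3* least (0.78 and 0.73). The sums included those of the TO cells in the endothelial cluster, which were left out of the tests. Among 11552 other genes that reached 50 CPM in a sum, *Cebpd*, *Ifitm2*, *Tpm4*, *Ifitm3* and *Wls* were most like *Fos* (r = 0.94 to 0.91), and *Anxa5*, *Arl6ip5*, *Rhob*, *Wls* and *Vwa5a* most like the mean of the 10 genes (0.93 to 0.92). These are descriptions, as sums of 1 library share its depth and most genes here separate somatic from germ cells.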

How the data were processed

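Droplet 3′ scRNA-seq (10x Genomics, v3.1 chemistry) was run on unsorted cells of 2 TO and 2 testis libraries. The authors made the deposited UMI counts per gene and barcode with Cell Ranger 7.1.0 on build mm10, per the submitters' processing notes. The annotation is not given in the sources used here, and the deposited counts are raw, so no normalization or doublet removal by the authors enters them. Groups were taken from the sample titles.

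Barcodes were scored with the Scrublet of scanpy 1.11.5, and those with the highest scores were removed as doublets, at a share of 0.008 per 1000 barcodes in the library (1119 to 1715 barcodes per library). Of the rest, cells were retained if their gene number lay between 1000 and 5000, their UMIs did not exceed 20000 and mitochondrial transcripts made up no more than 10%. Counts were scaled and log-transformed, the 2000 most variable genes without the 10 genes and the listed stress response genes were reduced to 30 principal components, libraries were joined with an own implementation of Harmony, and Leiden clusters (leidenalg 0.10.2, resolution 1) were named from marker genes, with 24 to 107 cells per library left unnamed. The endothelial cluster was left out of the tests because its TO cells held 255 and 135 CPM of the endothelial marker list against 2999 and 2259 CPM in testes, with 1 and 3 of the 6 markers at 0, although a test had been planned.

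UMIs were summed per library and type and tested with edgeR 4.0.16 (TMM, quasi-likelihood, Benjamini-Hochberg adjustment over all genes of a type), with DESeq2 1.42.0 as an alternative. The scripts were tested on simulated data. Libraries held 74988295 to 119966959 UMIs. Intervals are exact binomial (95%) and floors are 3 counts, and both cover counting error only. The members and lists were chosen with earlier results of these data known. Values are given for all 10 genes, the 3 other listed genes with the largest change in each direction per somatic type, and the 5 genes most like *Fos* and most like the mean. Other genes were named to spell out small counts, after their values were seen. The alternatives were other scaling, filters, thresholds, thinning, doublet, Harmony, clustering and cell assignment choices, a replicate block and each library left out.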

Additional observations from a re-analysis of the deposited data

Results flagged for a closer look

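The change between TOs and testes differed between Sertoli cells and another somatic type for 5 of the 10 genes, by a test of the difference itself (edgeR interaction over the sums of 5 types, log2 scale, other type minus Sertoli cells). For *Fos* the difference was -2.66 in Leydig cells, -3.09 in macrophages, -2.76 in myoid and -2.28 in stromal cells. For *Jund* it was -2.04 in Leydig cells, -1.46 in macrophages, -2.47 in myoid and -2.46 in stromal cells. For *Jun* it was -1.66 in Leydig, -2.21 in myoid and -1.66 in stromal cells. For *Atf3* it was -4.73 in Leydig and -6.81 in myoid cells, on 7 and 1 UMIs in the testis Sertoli sums. For *Dusp1* it was -2.19 in Leydig cells. All 14 differences were in the same direction, with a larger TO to testis change in Sertoli cells.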

How the results depend on the processing

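In Sertoli cells the count of the 10 genes called stayed within 1.5 times of 8 under every alternative run. Elsewhere the counts moved, and the cause was not tested. DESeq2 called 3 of the 10 genes in Leydig cells, 4 in macrophages, 6 in stromal cells, 3 in spermatogonia and 4 in spermatids. Without TMM factors 1 was called in macrophages and 6 in spermatids, and with every gene of any count 8 each in macrophages, myoid and stromal cells, of which *Atf3* in myoid cells was called lower. With an adjusted p below 0.05 and no fold threshold 3 were called in Leydig cells, 5 in macrophages, 6 in stromal cells and 3 in spermatids. Thinned sums gave 0 in macrophages and 2 in spermatogonia, no upper limits on cells 4 in spermatids, no doublet removal 1 in Leydig cells and 3 in spermatogonia, resolution 2 gave 3 in spermatogonia, and a marker score per cell 2 in myoid cells. Leaving out genes of other cells gave 0 in spermatogonia and 0 in spermatocytes, since those genes were then not tested. Without Harmony no myoid or spermatid value could be had, and with the score per cell no spermatid value.

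The replicate numbers share only a number, with a correlation of deviations between -0.01 and 0.17 over the types and 2 pairs. With the replicate block 2 of the 10 genes were called in Leydig cells, 7 in macrophages, 8 in myoid cells (7 higher and *Atf3* lower), 7 in stromal cells and 2 in spermatids, and of the other stress response genes 5 in Leydig cells, 26 in macrophages, 37 in stromal cells, 11 in spermatogonia and 2 in spermatids. Of all genes the block called 909 in spermatids.

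Counts over all genes moved in Sertoli cells to 6972 (no fold threshold) and 2689 (thinned), in Leydig cells to 0 (any count), 107 (genes of other cells left out) and 3699 (no fold threshold), in macrophages to 1293 (thinned), in myoid cells to 6127 (no fold threshold) and in stromal cells to 4937 (any count) and 4730 (no fold threshold). In spermatogonia they moved to 995 (genes of other cells left out) and 1137 (thinned), and in spermatids to 1310 (no TMM), 907 (DESeq2), 381 (genes of other cells left out), 429 (no fold threshold), 220 (thinned) and 712 (no upper limits). Without TMM the higher calls were 48.7% of calls in spermatocytes in place of 35.8%, and 65.2% in spermatids, where DESeq2 gave 34.5%. The median log2 fold change of all genes went without TMM from 0.02 to -0.09 in Sertoli cells, 0.06 to -0.16 in macrophages, -0.14 to 0.19 in spermatocytes and -0.29 to 0.60 in spermatids.

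The other stress response genes called moved to 21 (genes of other cells left out) and 49 (no fold threshold) in Sertoli cells, and to 5 (no TMM), 19 (DESeq2), 0 (any count), 1 (genes of other cells left out), 23 (no fold threshold) and 5 (thinned) in Leydig cells. They moved to 8 (no TMM), 27 (any count) and 5 (thinned) in macrophages, and to 10 (no TMM), 26 (DESeq2), 38 (any count) and 37 (no fold threshold) in stromal cells. In spermatogonia they were 11 (any count), 11 (no fold threshold) and 14 (score per cell), in spermatocytes 19 (genes of other cells left out) and in spermatids 14 (no TMM), 6 (DESeq2), 3 (no fold threshold) and 4 (no upper limits).

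With each library left out in turn, the 10 genes gave 8 to 9 calls in Sertoli, 0 to 2 in Leydig, 0 to 8 in macrophage, 1 to 8 in myoid, 0 to 9 in stromal cells, 3 to 5 in spermatogonia, 3 to 8 in spermatocytes and 0 in spermatids. All genes gave 2763 to 3986, 1191 to 1740, 1018 to 2074, 2013 to 3691, 1435 to 2780, 1208 to 2396, 2743 to 6392 and 0 to 569 in the same order, and the other stress response genes 25 to 33, 4 to 12, 5 to 22, 13 to 33, 3 to 30, 4 to 12, 11 to 35 and 0 to 1. The counts changed more in Sertoli cells, an alternative chosen after seeing the data, were 2 to 5 against Leydig, 0 to 6 against macrophage, 2 to 5 against myoid and 1 to 4 against stromal cells.

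The TO minus testis difference in the share of cells with at least 5 of the genes was 9.90 percentage points in Sertoli cells and moved by more than the spread between libraries to 50.5 without thinning, 38.4 for at least 3 genes and 13.5 with the score per cell, and in Leydig cells from 16.5 to 32.9 without thinning. In the same order of the 3 settings it moved from 0.0949 to 11.8, 4.22 and 6.0 in spermatogonia, from 0.519 to 4.16, 1.52 and 4.84 in spermatocytes and from 0 to 2.07, 1.32 and -0.080 in spermatids. With each library left out it ran from 8.74 to 11.1 in Sertoli, 7.92 to 25.2 in Leydig, 3.55 (without TO replicate 1) to 40.2 (without TO replicate 2) in macrophage, 29.4 to 57.8 in myoid and 38.6 to 65.2 in stromal cells.

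No called change of the 10 genes reversed. Among uncalled ones, *Dusp1* turned in spermatocytes to 0.036 (no TMM), 0.12 (no Harmony) and 0.76 (score per cell), and in spermatids to 0.65 (no TMM) and 0.11 (no upper limits). With each library left out, log2 fold changes that crossed 0 ran in Leydig cells from -0.0071 to 2.16 for *Egr1*, -0.90 to 1.96 for *Atf3* and -0.92 to 1.94 for *Dusp1*, and in macrophages from -0.15 to 1.70 for *Fosb*. In myoid cells they ran from -0.60 to 1.30 for *Jun*, -0.16 to 0.74 for *Jund* and -4.02 to 0.10 for *Atf3*, in stromal cells from -0.14 to 0.47 for *Jund* and -1.08 to 2.25 for *Atf3*, and in spermatocytes from -0.77 to 0.13 for *Dusp1*. Uncalled differences from Sertoli cells that crossed 0 ran in Leydig cells from -0.53 to 0.073 for *Fosb*, -0.040 to 0.62 for *Junb*, -0.31 to 0.55 for *Ier2* and -0.95 to 0.68 for *Zfp36*. In macrophages they ran from -0.35 to 0.80 for *Junb*, -1.18 to 0.57 for *Egr1*, -0.55 to 0.72 for *Ier2* and -0.64 to 0.47 for *Zfp36*, in myoid cells from -0.14 to 0.29 for *Fosb* and -0.37 to 0.65 for *Zfp36*, and in stromal cells from -0.18 to 0.58 for *Fosb*, -0.062 to 0.56 for *Egr1* and -0.12 to 1.20 for *Zfp36*. Depth limits *Fos* and *Atf3* in testis Sertoli cells, with 4 and 1 UMIs in testis replicate 2, and every gene in the 48 and 39 TO spermatids.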
